A study of Mus musculus with 8 samples.

Results

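The circadian clock genes Nfil3, Clock, Arntl, Per1, Per2, Cry1, Nr1d1, Nr1d2, Dbp and Tef were followed in eosinophils sorted from the bone marrow and the small intestine of mice. Each was found by its symbol as 1 row of the deposited expression table, so that all 10 were present among 38392 genes. Eosinophils are granulocytes that are made in the bone marrow and take up residence in the intestinal wall. All mice were C57/BL6 wildtype, and the study describes the mice of this experiment as female. Their age is not given in the labels, and the methods give an age range for all mice of the study together. The labels list 4 separate samples per tissue, so n = 4 for bone marrow and n = 4 for small intestine. Intestinal eosinophils were gated as CD11b+ MHC-II- SiglecF+ SSChi cells, and bone marrow eosinophils as CD11b+ Ly6G- Ly6C- SiglecF+ SSChi cells. The intestinal cells had been released by warm enzymatic digestion and enriched on CD11b beads, whereas bone marrow was flushed out and freed of red cells, so tissue and handling cannot be told apart. The time of day at which the tissues were taken is not given in the sources used here, and no time course was measured. Whether both tissues were taken at the same time is not stated either, so tissue and time of day cannot be told apart.

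The mammalian clock is a transcriptional feedback loop. CLOCK and ARNTL (also called BMAL1) bind E-box sequences as a pair and activate the Per and Cry genes, whose protein products then repress CLOCK and ARNTL. In a second loop the nuclear receptors NR1D1 and NR1D2 (REV-ERB alpha and beta) repress Arntl, and retinoid-related orphan receptors activate it. In an output loop the basic leucine zipper (bZIP) activators DBP, TEF and HLF and the repressor NFIL3 compete for D-box sequences. Since such transcripts can rise and fall over the day, each value below is a level at an unstated time. In immune cells NFIL3 is best known for its part in the development of natural killer and innate lymphoid cells.

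Promoter windows of RefSeq on GRCm38.p6, from 250 bases before to 50 bases after a transcript start, were available for 9 of the 10 genes, in 14 windows of 300 bases. Per2 had no entry. The windows printed are those of Per1, Nfil3 and Tef, which were higher in the small intestine, of Cry1, which was lower, and of Per3, the period gene that moved opposite to Per1. Capitals in the Per1, Cry1 and Tef windows mark the E-box CACGTG, and in Cry1 also the E-prime box CACGTT, here read on the other strand. Capitals in Per3 mark the D-box TTATGTAA. In Per1 and Nfil3, capitals also mark the nuclear receptor motif AGGTCA and TGACG, the core of the cAMP response element, each read on either strand. Other matches, among them the TGACG of Cry1, were left in lower case.
Per1 promoter (chr11:69098699-69098998, plus strand): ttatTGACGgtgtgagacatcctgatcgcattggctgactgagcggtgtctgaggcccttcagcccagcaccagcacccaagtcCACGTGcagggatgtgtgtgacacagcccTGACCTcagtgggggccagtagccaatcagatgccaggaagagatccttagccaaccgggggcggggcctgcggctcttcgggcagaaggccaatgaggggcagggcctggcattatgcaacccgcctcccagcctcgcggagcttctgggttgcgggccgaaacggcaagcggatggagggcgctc
Nfil3 promoter (chr13:52980990-52981289, minus strand): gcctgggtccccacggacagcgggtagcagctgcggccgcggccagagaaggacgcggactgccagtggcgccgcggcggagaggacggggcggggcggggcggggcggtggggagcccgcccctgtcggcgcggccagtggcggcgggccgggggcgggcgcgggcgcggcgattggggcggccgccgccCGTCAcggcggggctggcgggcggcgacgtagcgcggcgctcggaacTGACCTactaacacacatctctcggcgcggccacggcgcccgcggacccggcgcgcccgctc
Tef promoter (chr15:81802423-81802722, plus strand): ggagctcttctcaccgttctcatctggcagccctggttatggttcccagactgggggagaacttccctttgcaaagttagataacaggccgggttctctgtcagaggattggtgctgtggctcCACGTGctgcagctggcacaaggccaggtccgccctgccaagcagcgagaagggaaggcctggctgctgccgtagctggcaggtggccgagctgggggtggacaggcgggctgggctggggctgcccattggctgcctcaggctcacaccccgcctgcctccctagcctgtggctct
Cry1 promoter (chr10:85185005-85185304, minus strand): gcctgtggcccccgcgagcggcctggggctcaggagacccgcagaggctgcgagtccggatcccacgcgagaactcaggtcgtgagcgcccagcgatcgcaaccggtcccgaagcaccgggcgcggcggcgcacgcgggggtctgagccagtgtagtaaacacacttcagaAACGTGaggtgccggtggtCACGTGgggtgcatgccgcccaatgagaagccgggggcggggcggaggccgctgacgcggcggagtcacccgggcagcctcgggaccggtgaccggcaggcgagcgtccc
Per3 promoter (chr4:151044616-151044915, minus strand): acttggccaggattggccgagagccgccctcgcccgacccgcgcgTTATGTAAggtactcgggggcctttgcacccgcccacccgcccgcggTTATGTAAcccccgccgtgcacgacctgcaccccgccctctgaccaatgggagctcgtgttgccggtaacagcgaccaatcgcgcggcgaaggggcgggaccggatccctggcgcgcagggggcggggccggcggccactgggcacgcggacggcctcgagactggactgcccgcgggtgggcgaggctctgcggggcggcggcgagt
The E-box lay 166 bases before the start in Per1, 127 in Tef and 60 in Cry1, counted from its first base, and the D-boxes of Per3 lay 205 and 158 bases before the start.

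Matches were sought on both strands with exact letters. The E-box occurred in 4 of the 14 windows (3 of 9 genes, Per1, Cry1 and Tef), against 7.15% of all 32851 windows. The E-prime box occurred in 2 windows (Cry1 and Nr1d1), against 4.68%. The nuclear receptor motif AGGTCA occurred in 5 windows (Arntl, Clock, Nfil3, Nr1d2 and Per1), against 16.3%. The core TGACG occurred in 4 windows (Cry1, Nfil3 and both windows of Per1), against 20.8%. The whole cAMP response element TGACGTCA, which contains that core, occurred in none of the 14 windows, against 1.79% of all. The D-box, searched as TTATGTAA or TTACGTAA, was also in none, against 1.06%. The core GCGTG bound by the aryl hydrocarbon receptor occurred in 8 windows (7 of 9 genes), against 32.4%. Per1 and Cry1 thus each held both an E-box and a TGACG core in 1 window, whereas Nfil3 held a TGACG core but no E-box. A match describes letters in these windows and not the binding of a factor.

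Levels are given as normalised read counts, that is, reads per gene recovered from the deposited values and divided by a size factor for each library. The depth was 11508002 to 21289164 reads assigned to genes per library. The bone marrow libraries are called BM_1, BM_3, BM_4 and BM_5, and the small intestinal ones SI_6, SI_7, SI_10 and SI_11, after the columns of the table. The labelled cell type was checked against its markers. Of 5 eosinophil markers, Siglecf, Ccr3 and Il5ra were higher in the small intestine, and the granule genes Epx and Prg2 were higher in bone marrow. Summed over the list, eosinophil markers reached 2349 to 3323 normalised counts in bone marrow and 16954 to 25122 in the small intestine. Bone marrow libraries also held 322950 to 411654 normalised counts of 8 neutrophil precursor markers, led by Mpo, against 433 to 552 in the small intestine. The bone marrow libraries were thus far richer in these transcripts than in eosinophil markers. These markers did not bear out the label of the bone marrow libraries, which are called eosinophils here after their sort. The sum of 7 epithelial markers was 55.5 to 96.7 in bone marrow and 2150 to 13618 in the small intestine, highest in SI_6. All 15 immediate early and heat shock genes were higher in the small intestine, with summed levels of 2309 to 2693 against 104744 to 142729, led by Dusp1, Zfp36 and Fos. Markers of macrophages and dendritic cells (6 of 7 genes), fibroblasts (4 of 4), and the plasma cell gene Jchain were also higher in the small intestine, with sums of 1625 to 2207 for the first list against 401 to 535 in bone marrow and of 127 to 577 for the second against 5.74 to 34.4. All 4 erythroid markers were lower, at 43.9 to 87.3 against 560.2 to 732.5, and of 4 mast cell markers 1 was higher and 2 lower. Markers of T, NK and innate lymphoid cells were scarce in both tissues, at 44.02 to 64.1 in bone marrow and 39.1 to 58.2 in the small intestine, with 1 of 6 higher and 1 lower. B and plasma cell markers summed to 101 to 175 and 398 to 2601, with 1 of 4 higher and 1 lower. No marker was at 0 in every library of a tissue. In the counts of these lists, higher and lower mean a limma adjusted p under 0.05. By that measure 22.0% of all genes were higher and 12.9% lower. Among genes with a mean of at least 10 normalised counts the shares were 35.3% and 28.1%. All of these lists but the T, NK and innate lymphoid one moved with the tissue in sum, and their part in the differences below was not tested. In such bulk libraries, fewer cells of a type and less RNA per cell cannot be told apart.

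Of the 10 genes, 6 were higher in the small intestinal libraries (Clock, Arntl, Per1, Nr1d2, Nfil3 and Tef) and 1 was lower (Cry1), at a limma adjusted p under 0.05. Per2, Nr1d1 and Dbp did not pass. Over all 38392 genes, 22.0% passed as higher and 12.9% as lower. All 10 genes had a mean of at least 10 normalised counts, and of the 16308 genes at that level 35.3% passed as higher and 28.1% as lower. The 4 libraries of one tissue lay wholly above those of the other for 8 of the 10 genes, 7 higher and 1 lower in the small intestine, against 34.3% of all genes and 67.4% of those with a mean of at least 10, in either direction. The median difference of the 10 genes, small intestine minus bone marrow, was 1.32 log2 units, against 0.37 over all genes and 0.16 over the genes at that level. Differences below are in log2 units as deposited, each with its standard error (SE) from limma, and p-values are limma values adjusted over all genes by the Benjamini-Hochberg procedure. The scaling of the libraries changed the split of calls. Of all calls, 63.2% were higher in the small intestine with the authors' size factors. The share was 45.8% after quantile normalisation, which moved the median difference by -0.40. It was 29.5% after each library was centred on its median over all genes, a step that shifted all differences by -0.90. That median rests on genes with few reads, since 22084 of the 38392 genes had a mean under 10. The number of genes with any reads ran from 19713 in BM_4 to 33346 in SI_10.

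**Figure D1:**
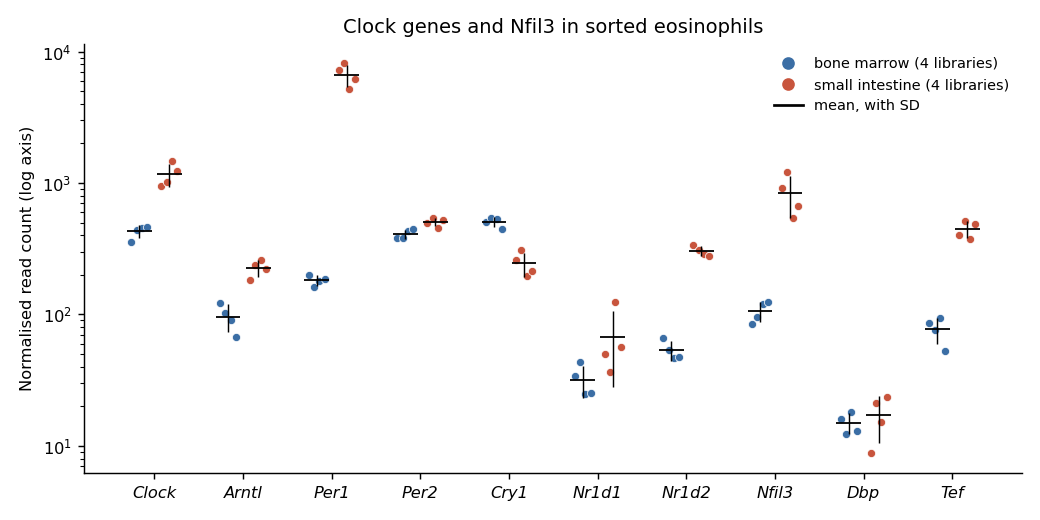
Normalised read count (log axis) of the 10 genes in each library, bone marrow in blue and small intestine in red, with 4 points per tissue. Horizontal lines are means and vertical lines SDs. The small intestinal points of Per1 lie between 5185 and 8128, far above the bone marrow points between 160.4 and 200.7, whereas the points of Dbp and Nr1d1 overlap.

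Both genes of the positive limb were higher in the small intestine. Clock (ENSMUSG00000029238; GRCm38 chr5:76209868-76304792), which encodes the histone acetylating partner of the pair, had normalised counts of 358.6, 442.2, 454.5 and 461.1 in BM_1, BM_3, BM_4 and BM_5, and of 1468, 1229, 947.4 and 1018 in SI_6, SI_7, SI_10 and SI_11. Every small intestinal library lay far above the highest bone marrow library, BM_5. The means were 429.1 ± 47.7 and 1166 ± 234 (SD, n = 4 each), a difference of 1.42 ± 0.21 log2 units (SE; limma adjusted p = 0.000953) and a ratio of means of 2.72. Arntl (ENSMUSG00000055116; chr7:113207465-113314126), which encodes the partner of CLOCK in the pair, had 122.6, 103.0, 90.9 and 67.9 normalised counts in BM_1, BM_3, BM_4 and BM_5. In SI_6, SI_7, SI_10 and SI_11 it had 258.7, 220.5, 183.8 and 239.4. The groups did not overlap, and BM_1 was the bone marrow library nearest to the small intestine. The means were 96.1 ± 22.9 and 225.6 ± 31.9, with a difference of 1.22 ± 0.23 (limma adjusted p = 0.00359). Both limma calls were lost when each library was centred on its median over all genes, which rests on genes with few reads. The differences were then 0.52 for Clock (limma adjusted p = 0.383) and 0.32 for Arntl (limma adjusted p = 0.611). The SE of Clock was 0.46 in that fit, against 0.21 as deposited. Quantile normalisation and centring on genes with a mean of at least 10 kept both calls.

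The negative limb was split. Per1 (ENSMUSG00000020893; chr11:69095217-69109960), a period gene that is also known as an early responder to cAMP and glucocorticoid signals, had 200.7, 160.4, 180.9 and 185.0 normalised counts in BM_1, BM_3, BM_4 and BM_5. In SI_6, SI_7, SI_10 and SI_11 it had 5185, 6216, 7261 and 8128. Its means were 181.8 ± 16.6 in bone marrow and 6697 ± 1276 in the small intestine, a difference of 5.16 ± 0.21 (limma adjusted p = 1.11e-06) and a ratio of 36.8, the largest difference of the 10 genes. Of all genes, 98.8% had a smaller difference.

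Per2 (ENSMUSG00000055866; chr1:91415982-91459324), a close relative of Per1, was much less different. It had 380.8, 382.8, 430.6 and 445.3 normalised counts in BM_1, BM_3, BM_4 and BM_5 and 456.3, 527.0, 499.9 and 539.3 in SI_6, SI_7, SI_10 and SI_11. The groups did not overlap, but SI_6 lay just above BM_5. The difference was 0.30 ± 0.17 (95% interval -0.09 to 0.69; limma adjusted p = 0.216). In limma it passed the threshold when only genes with a mean of at least 10 were tested (adjusted p = 0.0455) and without SI_6 and BM_5 (0.39, adjusted p = 0.0225), and it was -0.60 after centring on the median over all genes.

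Cry1 (ENSMUSG00000020038; chr10:85131700-85185064), a cryptochrome that represses CLOCK and ARNTL, was the 1 gene of the 10 that was lower in the small intestine. It had 501.1, 538.7, 535.9 and 447.2 normalised counts in BM_1, BM_3, BM_4 and BM_5, and 196.5, 213.6, 258.2 and 309.4 in SI_6, SI_7, SI_10 and SI_11. The highest small intestinal value, in SI_11, was below the lowest bone marrow value, in BM_5. The means were 505.7 ± 42.6 and 244.4 ± 50.5, with a difference of -1.06 ± 0.21 (limma adjusted p = 0.00411), so that bone marrow held 2.07 times the small intestinal mean.

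The pair of nuclear receptors did not pass alike. Nr1d2 (ENSMUSG00000021775; chr14:18204054-18239127), which encodes REV-ERB beta, had 66.7, 53.5, 46.9 and 47.4 normalised counts in BM_1, BM_3, BM_4 and BM_5 and 289.3, 278.7, 336.9 and 309.4 in SI_6, SI_7, SI_10 and SI_11. The means were 53.6 ± 9.20 and 303.6 ± 25.6, with a difference of 2.43 ± 0.19 (limma adjusted p = 2.88e-05) and a ratio of 5.66. The small intestinal libraries were close together for this gene, with an SD of 0.12 log2 units.

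Nr1d1 (ENSMUSG00000020889; chr11:98767932-98775333), which encodes REV-ERB alpha, had 33.7, 43.7, 24.9 and 25.1 normalised counts in BM_1, BM_3, BM_4 and BM_5 and 123.3, 56.9, 50.3 and 36.7 in SI_6, SI_7, SI_10 and SI_11. The groups overlapped, since SI_11 lay below BM_3, and SI_6 was the highest library of all. The difference was 0.88 ± 0.37 (95% interval 0.04 to 1.72; limma adjusted p = 0.101) with all libraries and 0.55 without SI_6 (adjusted p = 0.142). With a limma prior that was both trended on the mean level and robust it passed (adjusted p = 0.0382), and after centring on the median over all genes it was -0.02. Exons of Nr1d1 overlap those of the thyroid hormone receptor gene Thra on the opposite strand by 263 bases, 8.55% of the exonic length of Nr1d1. The normalised count of Thra was 350.8 ± 35.6 in bone marrow and 111.2 ± 79.8 in the small intestine. The strand setting of the count is not given in the sources used here, so reads in the shared stretch cannot be assigned.

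Among the bZIP genes, the repressor and 1 activator were higher in the small intestine. Nfil3 (ENSMUSG00000056749; chr13:52967209-52981073) had 85.0, 95.2, 119.6 and 124.6 normalised counts in BM_1, BM_3, BM_4 and BM_5, and 542.5, 674.0, 918.9 and 1215 in SI_6, SI_7, SI_10 and SI_11. The lowest small intestinal value, in SI_6, was far above the highest bone marrow value, although the small intestinal libraries ranged widely. The means were 106.1 ± 19.0 and 837.6 ± 296, with a difference of 2.89 ± 0.29 (limma adjusted p = 0.000106) and a ratio of 7.89, second to Per1 among the 10 genes. Tef (ENSMUSG00000022389; chr15:81802421-81826863), an activator at the D-box, had 85.8, 75.6, 93.8 and 53.0 normalised counts in BM_1, BM_3, BM_4 and BM_5 and 376.6, 489.5, 404.8 and 518.0 in SI_6, SI_7, SI_10 and SI_11. Its groups did not overlap, and its difference of 2.50 ± 0.23 (limma adjusted p = 7.55e-05) was close to that of Nfil3.

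Dbp (ENSMUSG00000059824; chr7:45705088-45710203), a D-box activator whose daily swing is among the widest in many tissues, held the fewest reads of the 10 genes. It had 16.1, 12.4, 18.2 and 13.0 normalised counts in BM_1, BM_3, BM_4 and BM_5 and 15.3, 23.6, 8.75 and 21.3 in SI_6, SI_7, SI_10 and SI_11, from 8 to 21 reads per library. The groups overlapped throughout, and the difference was 0.12 ± 0.29 (95% interval -0.54 to 0.77; limma adjusted p = 0.771). Of its exonic length, 18.0% overlaps Sphk2 on the opposite strand, whose normalised count was 312.8 ± 38.1 in bone marrow and 228.4 ± 26.5 in the small intestine.

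A further 26 genes of the clock were read from the same fit. Of these, 9 were higher in the small intestine, 8 were lower and 9 did not pass, and the median difference was 0.46. Over all genes 22.0% passed as higher and 12.9% as lower, and among the 16308 genes averaging 10 or more the shares were 35.3% and 28.1%. The libraries of the tissues did not overlap for 20 of the 26, 10 higher and 10 lower, against 34.3% of all genes and 67.4% of those with a mean of at least 10. The counts by role rest on few genes each and are read as descriptions beside these shares. By role, the remaining positive limb genes were higher (2 of 2). Of 7 negative limb genes 2 were higher and 3 lower, and of 4 nuclear receptors and corepressors none was higher and 1 was lower. The bZIP gene Hlf was lower. Of 7 kinase, ubiquitin ligase and protease genes 3 were higher and 1 lower, and of 5 cofactor and output genes 2 were higher and 2 lower.

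**Figure D2:**
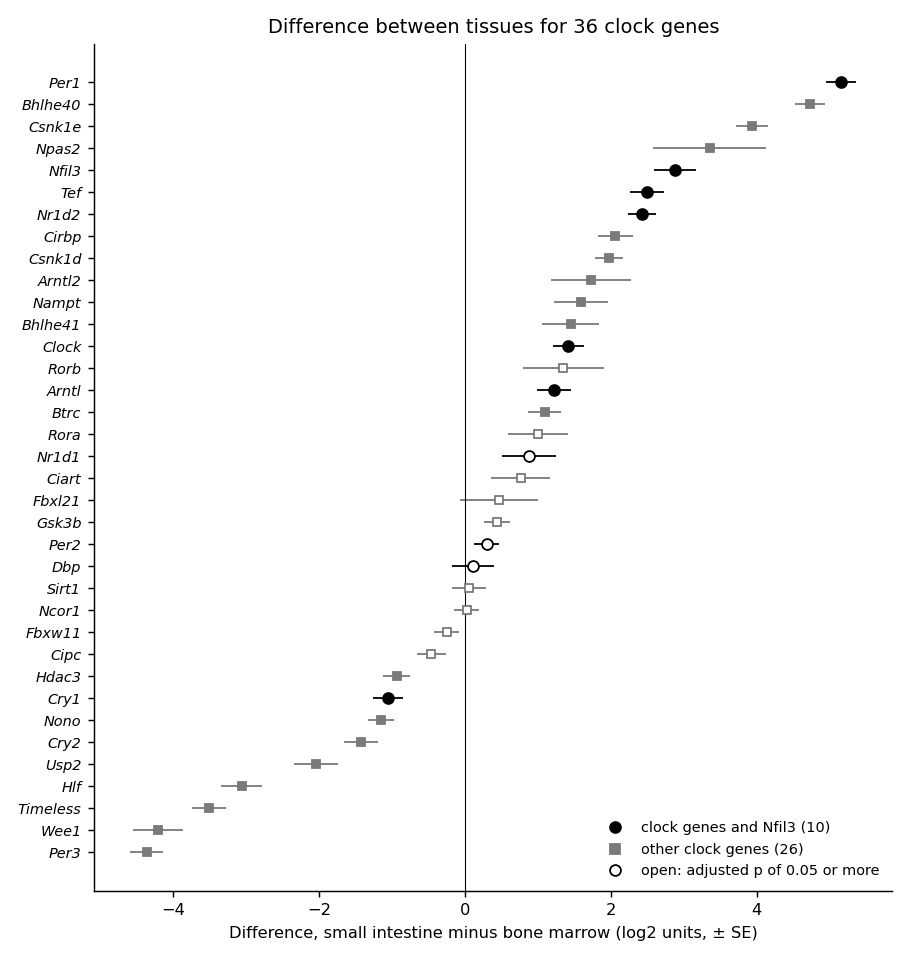
Difference between the tissues (small intestine minus bone marrow, log2 units, with SE) for the 10 genes (circles) and 26 other clock genes (squares), ordered by size. Filled symbols had a limma adjusted p under 0.05. Per1 stands at the top with 5.16 and Per3 at the bottom with -4.36, and Per2 lies near 0.

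Per3, the period gene thought to contribute least to the oscillation itself, had the most negative difference of the 36 clock genes. It had 1997, 1840, 2107 and 1612 normalised counts in BM_1, BM_3, BM_4 and BM_5 and 119.0, 92.9, 79.9 and 67.6 in SI_6, SI_7, SI_10 and SI_11. The bone marrow mean of 1889 ± 215 was 21 times the small intestinal mean of 89.8 ± 22.0, with a difference of -4.36 ± 0.22 (limma adjusted p = 3.34e-06). Cry2, the second cryptochrome, was lower together with Cry1, at 401.3 ± 70.5 normalised counts in bone marrow and 148.5 ± 35.0 in the small intestine (-1.42 ± 0.24, limma adjusted p = 0.00176). Timeless, whose protein acts mainly at the replication fork, was lower too (-3.51 ± 0.23, limma adjusted p = 1.21e-05).

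Bhlhe40 and Bhlhe41, which encode the E-box repressors DEC1 and DEC2, were both higher. Bhlhe40 reached the highest count of the 36 clock genes, with means of 498.4 ± 43.7 in bone marrow and 13485 ± 2583 in the small intestine (4.73 ± 0.21, limma adjusted p = 1.61e-06). Bhlhe41 held few reads, with 2.30 to 4.56 normalised counts in bone marrow and 4.74 to 24.0 in the small intestine (1.45 ± 0.39, limma adjusted p = 0.0193), and 19.0% of its exonic length overlaps Gm43909 on the opposite strand. Npas2 and Arntl2, the paralogues of Clock and Arntl, were also at low counts, with 2.71 ± 4.45 and 3.77 ± 4.61 normalised counts in bone marrow and 46.3 ± 38.2 and 13.8 ± 2.60 in the small intestine (limma adjusted p = 0.0091 and 0.0388). The Arntl2 call was lost without any 1 of 7 of the 8 libraries, BM_5 being the exception, and the Bhlhe41 call without BM_1, SI_6, SI_7 or SI_10.

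Rora and Rorb, which encode activating receptors of the second loop, did not pass, with differences of 1.01 ± 0.41 and 1.35 ± 0.55 (limma adjusted p = 0.0917 and 0.0946), and both passed without BM_5 (1.36 and 1.92, adjusted p = 0.0117 and 0.00332). Of 15 alternatives, Rora passed in 5 and Rorb in 4, all as higher. Rorb held few reads in bone marrow, with 1.96 to 28.8 normalised counts, the most in BM_5. Ncor1, the corepressor recruited by REV-ERB proteins, differed by 0.02 ± 0.17 (95% interval -0.36 to 0.41), whereas Hdac3, the deacetylase that NCOR1 brings along, was lower (-0.93 ± 0.18, limma adjusted p = 0.00392). Npas2, like Nr1d1, Clock and Arntl, was highest in SI_6 among the small intestinal libraries. SI_6 also had the most reads of epithelial markers, and their part in these values was not tested.

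The kinases that mark PER proteins for breakdown were higher. Csnk1e rose from 276.9 ± 51.6 to 4277 ± 735 normalised counts (3.93 ± 0.22, limma adjusted p = 5.30e-06) and Csnk1d from 1067 ± 106 to 4214 ± 631 (1.97 ± 0.19, limma adjusted p = 9.53e-05). Btrc, a ligase subunit that targets PER proteins, was higher by 1.09 ± 0.22 (limma adjusted p = 0.00513). The deubiquitinase gene Usp2 was lower (-2.04 ± 0.30, limma adjusted p = 0.000904). Gsk3b (0.44 ± 0.17, adjusted p = 0.0812), Fbxw11 (-0.25 ± 0.17, adjusted p = 0.297) and Fbxl21 (0.47 ± 0.53, adjusted p = 0.508) did not pass in limma. Fbxl21 held few reads, with 3.56 to 31.9 normalised counts per library. Gsk3b passed as higher in 7 of the 15 alternatives, among them voom (adjusted p = 0.000372) and the minimum mean of 10 (adjusted p = 0.00925), and Fbxw11 as lower in 2. The calls of Btrc and Csnk1d, like those of Nampt, Arntl2 and Bhlhe41, were lost on centring over all genes. Csnk1d shares 63 exonic bases with Gm28192 (22.6 ± 9.18 and 728.1 ± 166 normalised counts) and Csnk1e 267 with Gm16059, both on the opposite strand, and the normalised count of the latter was 36.4 ± 6.90 in bone marrow and 857.2 ± 193 in the small intestine.

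Cofactor and output genes went both ways. Wee1, a mitotic kinase gene under clock control, was lower, at 919.3 ± 119 normalised counts in bone marrow and 51.0 ± 29.0 in the small intestine (-4.20 ± 0.34, limma adjusted p = 3.49e-05), and so was Nono, a PER cofactor (-1.15 ± 0.18, limma adjusted p = 0.00112). Nampt, the rate-limiting enzyme of NAD salvage, was higher (1.59 ± 0.37, limma adjusted p = 0.0103), and so was Cirbp, an RNA-binding protein gene that responds to temperature (2.06 ± 0.24, limma adjusted p = 0.000237). Sirt1, a NAD-dependent deacetylase gene, differed by 0.06 ± 0.24 (95% interval -0.48 to 0.59). The negative limb genes Ciart (0.76 ± 0.40, limma adjusted p = 0.188) and Cipc (-0.46 ± 0.20, limma adjusted p = 0.11) did not pass. Ciart held few reads, with 4.60 to 27.0 normalised counts in bone marrow and 15.4 to 27.3 in the small intestine. Cipc passed as lower in 7 of the 15 alternatives, among them voom (adjusted p = 0.0303) and the minimum mean of 10 (adjusted p = 0.0243), and Ciart as higher in 1, without BM_5 (1.11, limma adjusted p = 0.0252).

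Within families, levels were compared per kb of exonic length, the union of all exons of a gene. Per1 made up 10.8% ± 1.04 of the normalised reads per kb of Per1, Per2 and Per3 in bone marrow, with a range of 9.88% to 11.9%, and 92.4% ± 1.20 in the small intestine, with a range of 91.1% to 93.6%. Per3 made up 65.7% ± 3.34 in bone marrow and 0.771% ± 0.334 in the small intestine. The main period transcript therefore was Per3 in every bone marrow library and Per1 in every small intestinal library.

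Among Nfil3, Dbp, Tef and Hlf, Nfil3 took 40.7% ± 5.76 per kb in bone marrow (34.1% to 47.8%) and 84.7% ± 4.24 in the small intestine (80.8% to 88.7%). Hlf took 47.8% ± 4.22 and 1.70% ± 0.92, and Tef 7.64% ± 1.64 and 12.3% ± 2.87. Hlf itself was at 407.9 ± 25.6 normalised counts in bone marrow and 48.0 ± 16.3 in the small intestine (-3.06 ± 0.28, limma adjusted p = 6.87e-05). The ratio of the repressor to the summed activators, Nfil3 to Dbp, Tef and Hlf per kb, was 0.517, 0.635, 0.729 and 0.916 in BM_1, BM_3, BM_4 and BM_5 and 4.34, 4.20, 7.37 and 7.82 in SI_6, SI_7, SI_10 and SI_11. It was below 1 in each bone marrow library and above 4 in each small intestinal library. The values depend on the length used, and per kb of the longest transcript the ratio was 0.399 to 0.719 in bone marrow and 2.47 to 4.49 in the small intestine, so that it stayed below 1 in the one and above 1 in the other. The ratio of Nfil3 to Tef alone overlapped between the tissues, at 5.70 ± 2.34 and 7.22 ± 2.02. These shares are descriptions of transcripts, and protein was not measured.

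**Figure D3:**
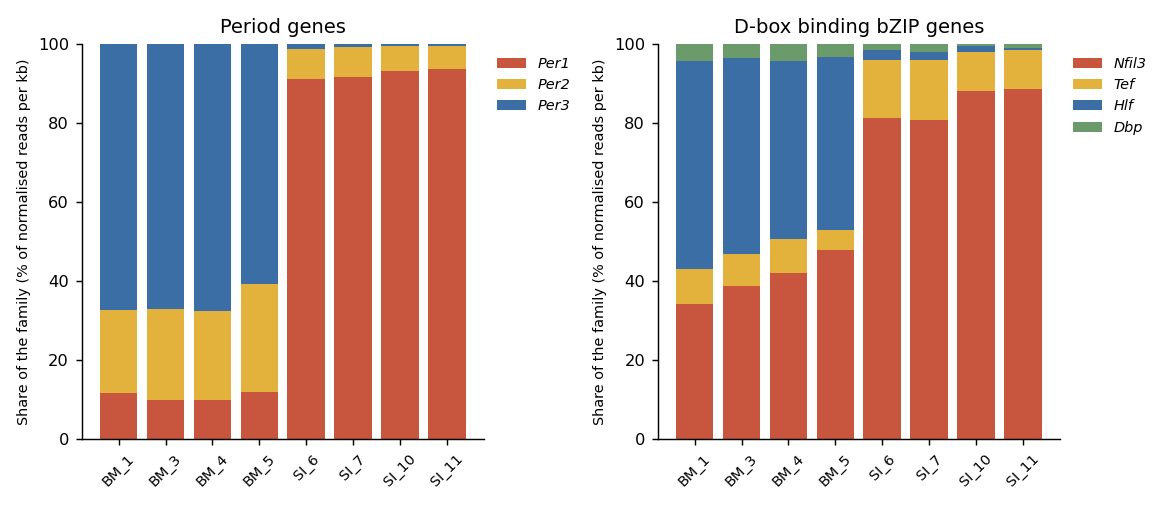
Share of each gene in the summed normalised reads per kb of its family (%, stacked to 100), in the 8 libraries, for the 3 period genes on the left and the 4 D-box binding bZIP genes on the right. Per1 goes from 9.88% to 11.9% in bone marrow to 91.1% to 93.6% in the small intestine, and Hlf goes from the largest or second largest share of its family to at most 2.63%.

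The order of the 10 genes by level per kb differed between the tissues. In bone marrow it was Cry1 (151.4 normalised reads per kb), Per2 (70.0), Nfil3 (52.4), Per1 (32.3), Clock (31.3), Arntl (12.8), Nr1d1 (10.3), Nr1d2 (9.91), Tef (9.79) and Dbp (4.98). The libraries of Per1 and Clock overlapped, as did those of each neighbouring pair from Arntl to Tef, so these neighbours could not be ordered. In the small intestine it was Per1 (1189), Nfil3 (413), Per2 (86.3), Clock (84.9), Cry1 (73.2), Tef (56.8), Nr1d2 (56.1), Arntl (29.99), Nr1d1 (21.7) and Dbp (5.76). Neighbours overlapped from Per2 to Nr1d2 and between Arntl and Nr1d1, while Per1 and Nfil3 stood clear of the rest in every library. Cry1 stood clear of the other genes in bone marrow but not in the small intestine, the reverse held for Per1, and Dbp had the lowest mean in both. These statements held per kb of the longest transcript too, but places in the middle changed, with Clock (44.04) before Per1 (38.9) in bone marrow and Clock (119.6), Tef (101.6), Per2 (86.7) and Cry1 (80.8) in that order in the small intestine, each overlapping the next.

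Within a tissue the genes varied to different degrees. In bone marrow the SD between libraries was 0.11 log2 units for Per2, the smallest, and 0.35 for Nr1d1, the largest, against a median of 0.23 over the 16308 genes defined above. In the small intestine it was 0.11 for Per2 and 0.70 for Nr1d1, against a median of 0.31. Dbp (0.52) and Nfil3 (0.51) were also above that median. Dbp held 8 to 18 reads per small intestinal library and Nr1d1 31 to 113, against 486 to 1025 for Nfil3. Counting noise is larger at so few reads, and its part in these spreads was not tested. SI_6 had the highest value of the 4 small intestinal libraries for 3 genes (Clock, Arntl and Nr1d1) and the lowest for 5, and SI_11 had the highest for 5. In SI_6, Nr1d1 lay 0.99 log2 units above the small intestinal mean and Clock 0.35 above, whereas Nfil3 deviated by -0.56 and Per1 by -0.35. The epithelial markers Epcam and Krt8 lay 1.73 and 1.62 above the mean in the same library. The immediate early genes were split, with Egr1 1.01 above the mean and Fos at -0.32. The summed immediate early and heat shock list was lowest in SI_6, at 104744 normalised counts. The part of these in the spread was not tested. Without SI_6 the difference between the tissues was 5.28 for Per1, 3.07 for Nfil3 and 1.30 for Clock, and all 3 calls held.

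**Figure D4:**
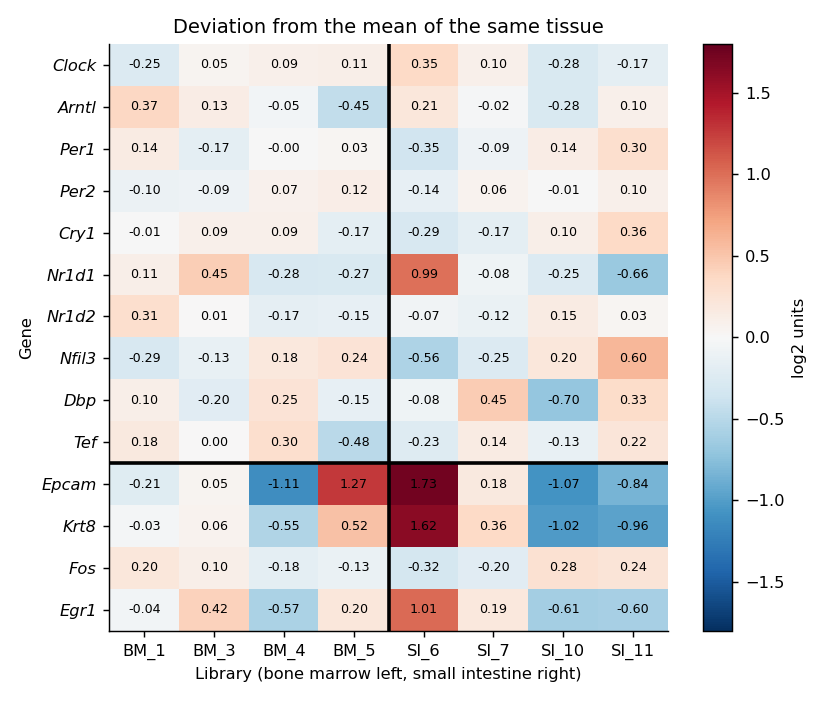
Deviation of each library from the mean of its tissue (log2 units, colour and printed number) for the 10 genes and, below the line, for 2 epithelial genes (Epcam, Krt8) and 2 immediate early genes (Fos, Egr1). SI_6 lies above the mean for Nr1d1 (0.99), Egr1 (1.01), Epcam (1.73) and Krt8 (1.62) and below it for Fos (-0.32). SI_11 lies below the mean for Nr1d1 (-0.66), Epcam (-0.84) and Krt8 (-0.96) and above it for Nfil3 (0.60).

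Since Per1 is also a known target of glucocorticoid signalling, 5 glucocorticoid-responsive genes were read beside it. Tsc22d3, Sgk1 and Zbtb16 were higher in the small intestine, with differences of 1.93, 2.02 and 2.74. Fkbp5, the chaperone gene that is often used as a readout of this receptor, was lower, with a difference of -2.80 (limma adjusted p = 1.33e-05), and Klf9 differed by 0.02 (limma adjusted p = 0.963). At a limma adjusted p under 0.05, 3 of the 5 were higher and 1 was lower, against 22.0% and 12.9% of all genes. All 5 had a mean of at least 10 normalised counts, and among genes at that level the shares were 35.3% and 28.1%. The part of glucocorticoid signalling in the Per1 difference was not tested.

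The genes whose pattern over the 8 libraries was most like that of Nfil3 were Slc2a1, Slc2a3, Sfxn5, Gm26789 and Nsun4, with root mean square distances of 0.155, 0.165, 0.184, 0.209 and 0.214 log2 units between centred values. The median distance of 16307 genes with a mean of at least 10 was 1.50. Slc2a1, which encodes a glucose transporter, was at 244.7 ± 28.2 normalised counts in bone marrow and 2225 ± 766 in the small intestine. Slc2a3, another glucose transporter gene, had 739.0 ± 86.4 and 4833 ± 1205. Since these 5 genes were chosen for their likeness to Nfil3 over the same libraries, their difference between the tissues follows from the choice.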

How the data were processed

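RNA from 4 bone marrow and 4 small intestinal eosinophil samples of mice was amplified as cDNA and sequenced from a single end. The authors mapped the reads to GRCm38 with the nf-core/rnaseq pipeline and deposited variance-stabilised values of DESeq2 (R 4.0.3, per the labels), which are on a log2 scale. Which aligner and strand setting were used, and how multimapping reads were treated, is not given in the sources used here. Columns match a tissue but no single sample. The study gives 4 female mice for each tissue and counts its replicates as mice. Whether they were taken on separate days is not stated. The p-values measure the spread between these samples.

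From the shared lowest value of 0.92971568 the transformation was inverted. Multiplied by size factors of 0.721 to 1.53, 100% of values came out as whole reads (tolerance 0.05, largest deviation 6.78e-05). Libraries of a tissue differed pairwise by more than counting noise (chi-square per gene of 10.2 to 66.8). For 22084 genes the mean was under 10 reads, and counts that low are imprecise.

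The unit is log2, so limma 3.58.1 in R 4.3.3 took the place of the count model of the authors. Tissue was the single term, the prior was constant and no gene was filtered out, with tests 2-sided and adjusted by Benjamini-Hochberg over 38392 genes, with a threshold of 0.05. The code was tested on simulated data. Alternatives were voom on the recovered reads, a prior both trended and robust, a minimum mean of 10 reads, median-centring, quantile normalisation and leaving out each library, and, chosen after seeing the data, leaving out SI_6 and BM_5 together. Levels between genes used the exonic length of GENCODE M21, in which all 38392 identifiers were found. Genes named were the 10 clock genes, 26 further clock genes (some genes of the list are not reported here), up to 3 members of each context list by mean level, and the 5 genes nearest to Nfil3 by root mean square distance. Overlapping genes, all members of the eosinophil and glucocorticoid lists, and Jchain, Krt8, Epcam and Egr1 were named after their values were seen. The 10 genes and all lists were chosen with earlier results of these data known. Tables were made in Python 3.11.15 (pandas 2.3.3, numpy 2.4.6) and plots in matplotlib 3.10.9.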

Additional observations from a re-analysis of the deposited data

Results flagged for a closer look

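In 6 of 74 groups of 4 libraries (the 36 clock genes, Nfil3 included, and the ratio of Nfil3 to the activators, in either tissue), 1 library stood apart from the other 3 by more than Dixon's 95% critical value, set on the share of the group's range that the gap takes up. Chance alone gives about 1 in 20, or 3.7 of 74. For Clock, BM_1 was the lowest bone marrow library with a gap of 0.833 of the range. For Bhlhe41, SI_11 was the lowest small intestinal library (0.851). BM_5 was the highest bone marrow library for Rora (0.873), and it was the lowest for Cirbp (0.859). For Ncor1, SI_10 was the lowest small intestinal library (0.929). For Sirt1, BM_4 was the lowest bone marrow library (0.860). BM_5 thus accounted for 2 of the 6. It also held reads for 30886 genes, against 19713 to 24592 in the other bone marrow libraries.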

How the results depend on the processing

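Of the 10 genes, Per1, Nr1d2, Nfil3, Tef and Cry1 kept their direction and their call under each of the 15 alternatives, and the counts of 6 higher and 1 lower held under voom, quantile normalisation, centring on genes with a mean of at least 10, and leaving out any 1 library. A trended and robust prior or a minimum mean of 10 reads gave 7 higher and 1 lower, and so did leaving out SI_6 and BM_5, chosen after seeing the data. Centring on the median over all genes, which rests on genes with few reads, gave 4 higher and 1 lower. Under that centring 4285 of all genes were higher and 10216 lower, against 8465 and 4937 as deposited, and 4 of the other clock genes were higher, against 9. Differences changed sign under it for Per2 (-0.60), Nr1d1 (-0.018), Dbp (-0.78), Ciart (-0.14), Ncor1 (-0.88), Gsk3b (-0.46), Fbxl21 (-0.43) and Sirt1 (-0.84), and under quantile normalisation for Dbp (-0.77), Ciart (-0.21), Ncor1 (-0.73), Gsk3b (-0.0077) and Fbxl21 (-0.47). Centring on the better covered genes gave -0.039 for Ncor1 and -0.0069 for Sirt1, and leaving out SI_6 and BM_5 gave -0.015 for Ncor1. With 1 library left out, Dbp ranged from -0.033 to 0.35, Ncor1 from -6.24e-06 to 0.0901 and Sirt1 from -0.091 to 0.16. None of these genes was called as deposited. Ncor1 was called lower after quantile normalisation (limma adjusted p = 0.0057), Ciart higher in 1 and Gsk3b higher in 7 of the 15 alternatives, and the cause was not tested. Cipc was called lower in 7, Fbxw11 lower in 2, Rora higher in 5 and Rorb higher in 4. Of the 17 called among the other clock genes, 12 kept their call throughout. Per kb of the longest transcript, the ratio of Nfil3 to the activators was 3.46 in the small intestine and 0.542 in bone marrow, against 5.93 and 0.699 per kb of all exons. Depth limits Dbp, Bhlhe41, Arntl2, Npas2, Rorb, Ciart and Fbxl21, which held few reads in at least 1 tissue. No paired analysis was possible because no replicate number occurs in both tissues.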
